A study of Mus musculus with 2 samples.

Results

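The interleukin-1 family genes followed here were the 8 ligands, receptors and inhibitors Il33, Il1a, Il1b, Il1rn, Il1rl1, Il1r1, Il1rap and Il1r2, chosen by name among the 31053 genes counted in both libraries. They were chosen with their levels in these libraries already known, so the levels below are descriptions. The data were single-cell RNA-seq of small B16F10 tumours, a mouse melanoma line injected under the skin of the flank, from C57BL/6 hosts of 11 weeks. One library came from hosts with normal Atf4 (Atf4wt/wt, here WT) and 1 from hosts that had lost it (Atf4D/D, here KO), and each library pooled 2 tumours of male and female mice. Both kinds of host carried Rosa26::CreERT2 and both were given tamoxifen, the WT hosts included. The excision was driven throughout the host body and not in 1 cell type, whereas the injected melanoma cells kept their own Atf4. ATF4 is the transcription factor at the centre of the integrated stress response, which cells use when amino acids run short or proteins misfold.

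Interleukin-1 family ligands act as alarm signals. IL-33 is stored in the nucleus of stromal and barrier cells, is released by damage, and is read by its receptor ST2, the product of Il1rl1, which is best known on type 2 innate lymphoid cells, regulatory T cells and mast cells. IL-1α (Il1a) and IL-1β (Il1b) both signal through IL-1R1 (Il1r1), and both receptors need the shared chain IL-1RAcP (Il1rap) to signal. The receptor antagonist (Il1rn) occupies IL-1R1 without signalling and IL-1R2 (Il1r2) is a decoy that binds ligand without passing the signal on, so the balance of the 8 genes sets how much of an alarm is heard.

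The WT library held 6304 barcodes with 38417113 unique molecular identifiers (UMIs, each 1 counted RNA molecule) and the KO library 5474 barcodes with 38290024 UMIs, and 3861 and 3557 cells passed the filter. Cells were sorted into classes by counting detected markers, none of them a member, and a class is called "-like" because it rests on those markers. The myeloid threshold was lowered to 3 markers because many ungated cells held Il1b, so the Il1b values of that class are not independent of its gate. The fibroblast class, named cancer-associated fibroblast-like (CAF-like), held 179 WT and 216 KO cells and the myeloid-like class 1333 and 982. All 10 fibroblast markers and all 10 myeloid markers were highest in their own class in both libraries. The gates were built on these same markers, so this was largely set in advance. Mast cells and basophils, a known ST2-bearing type, passed their gate in 0 cells of either library. Levels are given as CPM, the UMIs of a gene summed over a class and scaled to a common total of all UMIs, with exact 95% Poisson limits that cover counting error only. Each genotype had 1 library, so no difference between WT and KO has a replicate check and none carries a p-value. Atf4, the targeted gene, stood at 253 (WT) and 44.2 CPM (KO) CAF-like cells and at 190.2 and 44.8 CPM in myeloid-like cells, against 227 and 212 CPM in melanoma-like cells. The WT CAF-like and myeloid-like cells held 0 UMIs of 4 Y-linked genes where the KO cells held 71 and 163, although the labels give pooled sexes for both libraries. Genotype, sex and mouse therefore cannot be told apart across all cells, and members are also given within sex-marked cells. Summed myeloid markers in CAF-like cells stood at 154 (WT) and 79.3 CPM (KO), erythroid markers at 489 and 0 CPM, and mast cell and basophil markers at 0 CPM (0 of 8 found) and 3.40 CPM (3 of 8 found); their part in the results was not tested.

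Il33 was carried by CAF-like cells in both libraries and its level in them was 4.89-fold higher in the KO library. The WT CAF-like cells held 133 Il33 UMIs, or 190.2 CPM (limits 159 and 225), and the KO cells 821 UMIs, or 929.7 CPM (limits 867 and 995.6). The log2 ratio of KO over WT was 2.29, with an exact conditional 95% interval of 2.02 to 2.56. Of all Il33 UMIs in kept cells, CAF-like cells held 82.1% in WT and 83.6% in KO. Melanoma-like cells stood at 1.30 CPM (WT) and 1.94 CPM (KO), with overlapping limits, and myeloid-like cells held 1 UMI in WT and 10 in KO. In the KO library free RNA of the whole library would put 7.17 Il33 UMIs into myeloid-like cells, so those 10 lie close to background. Endothelial-like cells, which can store IL-33 in other tissues, held 0 Il33 UMIs in 61 WT and 20 KO cells, which leaves room for up to 16.3 and 44.3 CPM.

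Il1rl1, which encodes the IL-33 receptor ST2, was likewise carried mostly by CAF-like cells and stood higher in those of the KO library. The WT CAF-like cells held 70 Il1rl1 UMIs, or 100.1 CPM, and the KO cells 455 UMIs, or 515 CPM, a log2 ratio of 2.36 with an interval of 1.998 to 2.75. CAF-like cells held 76.1% of all Il1rl1 UMIs in WT and 83.8% in KO. Melanoma-like cells held 3 Il1rl1 UMIs in WT and 20 in KO, or 0.156 and 0.994 CPM. The log2 ratio there was 2.67 with an interval of 0.92 to 5.07. All kept cells together held 92 Il1rl1 UMIs in WT and 543 in KO. Free RNA was not estimated for melanoma-like cells, so its part in their UMIs was not tested. None of the 30 T and NK cell-like cells of both libraries together carried an Il1rl1 UMI. Counting 3 cells for that 0, up to 10.0% of such cells could hold a UMI, but their median depth was 867 UMIs in WT and 701.5 in KO, so the share that expresses the gene was not limited. UMIs were counted per gene, so the membrane and the soluble form of ST2 were not separated.

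**Figure D1:**
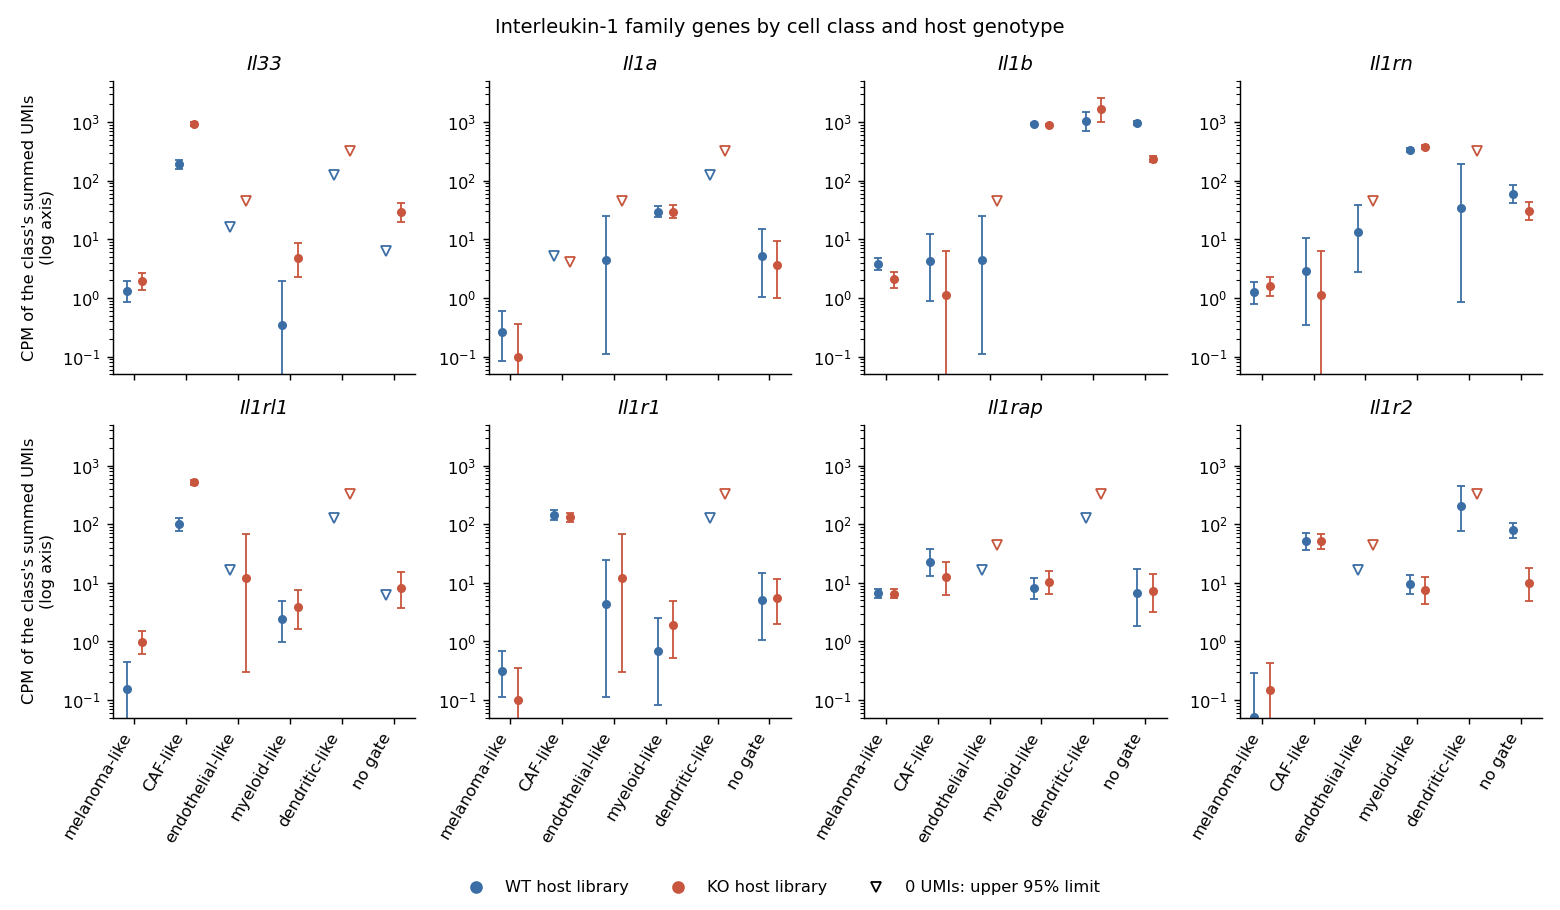
CPM of each member's summed UMIs (log axis) in 6 sets of cells, WT library in blue and KO library in red, with 95% Poisson limits as bars and, where a set held 0 UMIs, its upper limit as an open triangle. Il33, Il1rl1 and Il1r1 stand highest in CAF-like cells and Il1b, Il1rn and Il1a among myeloid-like or dendritic-like cells, and Il33 and Il1rl1 are the members whose WT and KO points stand apart in CAF-like cells.

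Il33 lies on the plus strand at chr19:29925114-29960718 and Il1rl1 on the plus strand at chr1:40429570-40465415 (GENCODE, GRCm38), and both are protein-coding genes that no other annotated gene overlaps. RefSeq lists 2 starts for each. The 250 bases before each start (RefSeq, GRCm38.p6, plus strand) are shown because this ligand and its receptor were the members that differed in CAF-like cells. Capitals mark matches to 7 motifs searched on both strands.
Il33, window before the upstream start, chr19:29924863-29925112: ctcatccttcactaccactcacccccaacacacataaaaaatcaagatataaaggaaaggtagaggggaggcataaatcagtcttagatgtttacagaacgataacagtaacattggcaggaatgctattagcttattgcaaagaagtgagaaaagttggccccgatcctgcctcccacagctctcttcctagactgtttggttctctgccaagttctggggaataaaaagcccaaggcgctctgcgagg
Il33, window before the downstream start, chr19:29945540-29945789: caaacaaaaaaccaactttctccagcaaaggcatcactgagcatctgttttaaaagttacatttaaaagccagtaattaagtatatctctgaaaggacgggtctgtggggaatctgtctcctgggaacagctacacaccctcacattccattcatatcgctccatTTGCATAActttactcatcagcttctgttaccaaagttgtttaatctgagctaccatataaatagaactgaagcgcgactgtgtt
Il1rl1, window before the upstream start, chr1:40429320-40429569: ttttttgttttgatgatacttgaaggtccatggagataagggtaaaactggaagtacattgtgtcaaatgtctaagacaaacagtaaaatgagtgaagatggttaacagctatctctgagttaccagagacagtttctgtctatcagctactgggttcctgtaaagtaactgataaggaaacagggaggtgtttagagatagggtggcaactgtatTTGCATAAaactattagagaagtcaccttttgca
Il1rl1, window before the downstream start, chr1:40439379-40439628: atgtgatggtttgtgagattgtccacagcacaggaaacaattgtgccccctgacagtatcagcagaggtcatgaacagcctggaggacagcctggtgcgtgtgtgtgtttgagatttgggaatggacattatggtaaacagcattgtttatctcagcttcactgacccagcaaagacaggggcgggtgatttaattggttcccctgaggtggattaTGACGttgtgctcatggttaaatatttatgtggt
The motif TTGCNNAA, a letter pattern of C/EBP factors, had 1 match in the window before the downstream Il33 start, 85 to 78 bases before it, and 1 in the window before the upstream Il1rl1 start, 34 to 27 bases before it, and 9.56% of 32851 mouse windows of that length held at least 1. TGACG, the first 5 bases of the cyclic AMP element, matched once, 34 to 30 bases before the downstream Il1rl1 start, and stood in 17.8% of windows. The full element TGACGTCA (1.55% of windows), the ATF4 composite site TGATGCAAT (0.167%), the hypoxia core ACGTG (16.6%), the AP-1 site TGANTCA (6.75%) and the NF-kB site (17.6%) were absent from these windows. The counts come from the 3′ ends of transcripts and do not show which start was used.

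In the KO library more CAF-like cells held Il33 and Il1rl1, and the highest cells held more of both. Il33 was found in 54 of 179 WT CAF-like cells (30.2%, exact limits 23.5 and 37.5%) and in 125 of 216 KO cells (57.9%, limits 51.0 and 64.5%), at median depths of 3739 and 3743 UMIs. When each cell was thinned to 2000 UMIs, which left out 24 WT and 30 KO cells, the shares were 24.5% and 47.8%. Melanoma-like cells, at a median of 11494 and 10937.5 UMIs, had an Il33 UMI in 1.44% and 2.05% of cells, and in 0.124% and 0.284% after thinning. The highest WT cell held 10 Il33 UMIs and the highest KO cell 60, and 6 WT and 50 KO cells held 5 or more. The tenth of CAF-like cells with the most Il33 held 64.7% of its UMIs in WT and 57.2% in KO, so the transcript was uneven among cells in both libraries.

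Il1rl1 was found in 15.6% of WT and 46.3% of KO CAF-like cells, and in 9.03% and 37.1% after thinning. The highest WT cells held 7 Il1rl1 UMIs each and the highest KO cell 26. The tenth of cells with the most Il1rl1 held 85.7% of its UMIs in WT (60 of 70 in 18 cells) and 56.5% in KO, and without the 10 highest cells of each library the log2 ratio of KO over WT moved from 2.36 to 3.67, on 19 WT UMIs. In the WT library 16.7% of cells with Il33 also had Il1rl1, against 15.2% of cells without Il33. In the KO library those shares were 54.4% and 35.2%, and after thinning 41.6% and 33.0%. Ligand and receptor transcripts thus stood in the same cell for 9 WT and 68 KO cells at full depth.

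**Figure D2:**
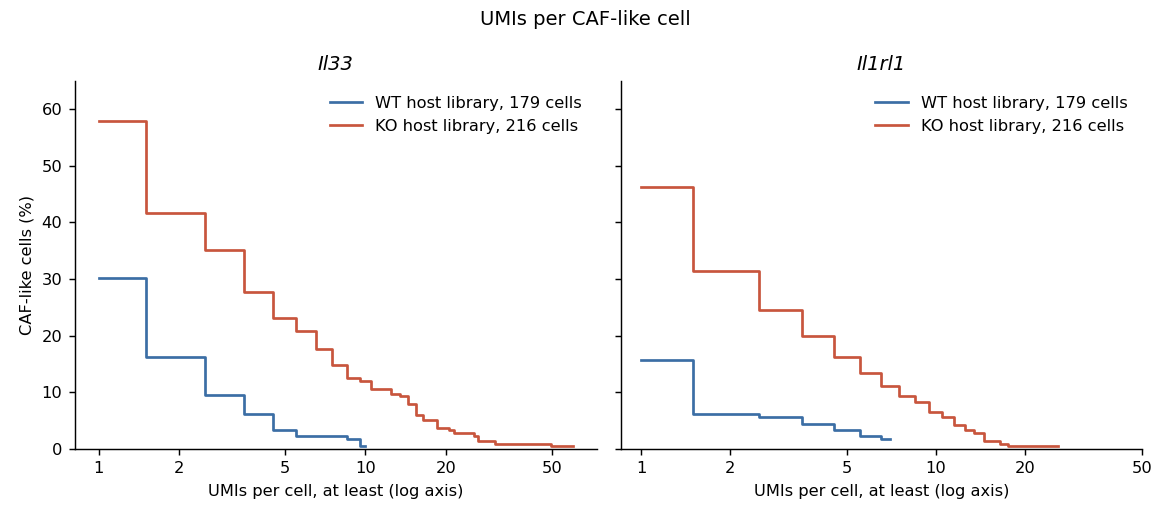
Share of CAF-like cells (y axis, %) that held at least the number of UMIs on the x axis (log axis) for Il33 and Il1rl1, with the 179 WT cells in blue and the 216 KO cells in red. The KO line lies above the WT line at every count, and it reaches 60 UMIs for Il33 and 26 for Il1rl1 where the WT line ends at 10 and 7.

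The other receptors in CAF-like cells had KO over WT intervals that held 0. Il1r1, the signalling receptor for IL-1α and IL-1β, held 100 WT UMIs (143 CPM) and 115 KO UMIs (130.2 CPM), a log2 ratio of -0.14 with an interval of -0.53 to 0.27. Il1r1 lies at chr1:40225080-40317257 and Il1r2 at chr1:40074079-40125231, both on the plus strand upstream of Il1rl1. Each overlaps a further annotated gene on its own strand, and any effect of that on the counts was not tested. The decoy Il1r2 was at 51.5 and 51.0 CPM (36 and 45 UMIs), a log2 ratio of -0.01 with an interval of -0.68 to 0.66. Il1r2 was found in 33.3% of WT cells with Il1r1 against 9.48% of cells without it, and in 27.4% against 11.4% in KO. After thinning these shares were 14.7% against 9.92% in WT and 19.1% against 6.47% in KO. Il1rap, the chain both receptors need, was sparse, with 16 UMIs (22.9 CPM) in WT and 11 UMIs (12.5 CPM) in KO and an interval of -2.13 to 0.32 around a log2 ratio of -0.88. An Il1rap UMI was found in 1 of 28 WT cells with Il1rl1 and in 6 of 100 KO cells with Il1rl1. Among CAF-like cells Il1a had 0 UMIs in either library, Il1b 3 in WT and 1 in KO, and Il1rn 2 and 1, where free RNA alone would give 4.76 and 5.12 UMIs of Il1b.

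Over all 7138 genes with at least 20 UMIs in CAF-like cells, 4.05% were at least 2-fold higher in KO with an interval off 0 and 4.82% were lower. Of the 5 members measured there, Il33 and Il1rl1 were higher and none was lower. Since the members were chosen with these ratios known, nothing is read from that count. By ratio Il1rl1 ranked 29 and Il33 ranked 33 among the 7138 genes, whose median log2 ratio was -0.04.

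**Figure D3:**
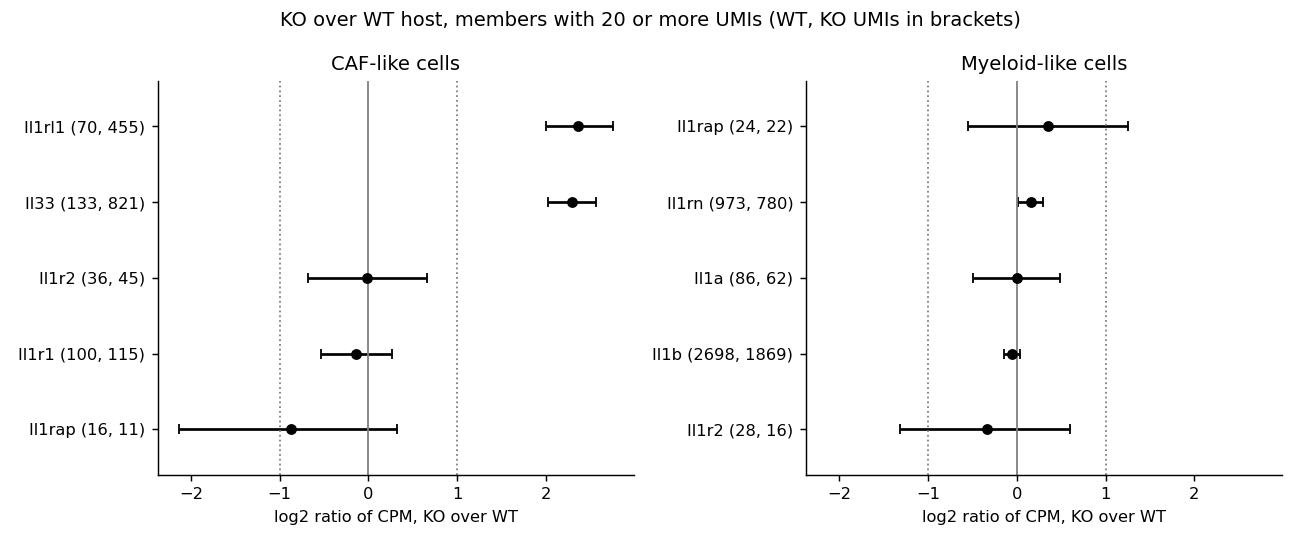
Log2 ratio of CPM, KO over WT library, with exact 95% conditional intervals as bars, for the members with 20 or more UMIs in CAF-like cells (left) and myeloid-like cells (right), with solid lines at 0 and dotted lines at -1 and 1. Il1rl1 at 2.36 and Il33 at 2.29 stand beyond 1 in CAF-like cells and the intervals of the other 3 members there hold 0, while in myeloid-like cells every point lies between -0.33 and 0.35.

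Il33 was higher in KO within sex-marked CAF-like cells too, by a smaller margin. Among cells that carried Xist and lacked Y-linked UMIs, Il33 was at 209 CPM over 146 WT cells and at 685 CPM over 55 KO cells, a log2 ratio of 1.71 with an interval of 1.35 to 2.08. The 50 KO cells with Y-linked and no Xist UMIs stood at 1327 CPM, above the KO cells with Xist, and the 111 KO cells with neither at 791 CPM. Il1rl1 followed the same order, at 91.0 CPM in WT cells with Xist, 390.2 CPM in KO cells with Xist and 616 CPM in KO cells with Y-linked UMIs. The within-Xist log2 ratio of Il1rl1 was 2.10 with an interval of 1.57 to 2.63.

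Among fibroblast subtypes, Il33 was highest in CAF-like cells that passed the hypoxic gate. A subtype gate needed 3 detected markers of its list, and the gates overlap: 81.3% of cells in the hypoxic gate also passed the activated gate, and 40.8% of WT and 45.8% of KO cells passed several. The hypoxic gate rests on low-oxygen and glucose-uptake genes such as Slc2a1, Car9 and Egln3. In WT, 24 cells inside it held 60 Il33 UMIs at 499.5 CPM, against 126 CPM outside, a log2 ratio of inside over outside of 1.99 with an interval of 1.47 to 2.499. In KO, 67 cells inside held 629 UMIs at 1900.4 CPM, against 348 CPM outside, a log2 ratio of 2.45 with an interval of 2.21 to 2.69. The gate thus held 45.1% of WT and 76.6% of KO Il33 UMIs. With 1 more marker needed, the log2 ratios were 1.98 in WT and 1.94 in KO. Cells inside the gate were deeper, at medians of 4652 against 3585 UMIs in WT and 4508 against 3303 in KO, and CPM divides by depth. In WT 11 cells and in KO 27 cells sat at exactly 3 hypoxic markers, with 14 and 25 just below. The 12 KO cells that passed the hypoxic gate and no other held 80 Il33 UMIs at 2141 CPM, and the 2 such WT cells held 0.

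The KO library was above WT on both sides of the hypoxic gate. Inside it the log2 KO over WT ratio of Il33 was 1.93 (interval 1.54 to 2.33) and outside it 1.46 (interval 1.07 to 1.87). The gate held 13.4% of WT and 31.0% of KO CAF-like cells, and what that share adds to the ratio over all CAF-like cells was not tested. Il1rl1 did not share the hypoxic pattern in KO, at 495 CPM inside and 527 CPM outside, whereas in WT it stood at 199.8 CPM inside and 79.4 CPM outside. Under the stricter hypoxic gate the WT log2 ratio of inside over outside for Il1rl1 moved from 1.33 to 0.14, with an interval of -1.24 to 1.26. Outside the hypoxic gate the Il1rl1 ratio of KO over WT was 2.73 (interval 2.28 to 3.21) and inside it 1.31 (interval 0.69 to 1.99).

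In the activated gate, built on matrix genes such as Postn, Cthrc1 and Lrrc15, the WT library had most of its Il1rl1. The 122 WT cells inside held 68 of 70 Il1rl1 UMIs, at 123 CPM against 13.8 CPM outside. With 1 more marker needed, 59 of 70 UMIs were inside, at 133 CPM against 42.8 CPM, and the log2 ratio of inside over outside moved from 3.15 to 1.64. In KO the 124 cells inside stood at 543 CPM and the 92 cells outside at 446 CPM. Outside the activated gate the log2 ratio of KO over WT for Il1rl1 was therefore 5.02, with a wide interval of 3.13 to 8.08 on 2 WT UMIs against 113 KO UMIs. The median depth of cells outside this gate was 2720 UMIs in WT and 2717 in KO. Il33 differed by less than 2-fold by this gate, at 184 CPM inside and 214 CPM outside in WT and at 992 and 774 CPM in KO. Il1r2 ran the other way, at 39.7 CPM inside and 96.6 CPM outside in WT and at 33.3 and 94.8 CPM in KO.

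The vascular gate, built on genes of pericytes and smooth muscle such as Rgs5 and Notch3, had little Il33. Of its cells 85.7% also passed the activated gate, and 3 WT and 1 KO cells passed the vascular gate alone. The vascular gate thus did not set pericytes apart from activated fibroblasts. Its 26 WT cells stood at 82.3 CPM against 216 CPM outside, and its 16 KO cells held 3 UMIs, or 45.5 CPM, against 1001 CPM outside. The KO over WT interval inside this gate ran from -3.34 to 1.06 on 11 and 3 UMIs, so a difference was not detectable there at this depth. The adventitial gate, built on Pi16, Dpp4 and other genes of progenitor-like fibroblasts, stood at 147 (WT) and 686 CPM (KO) of Il33, and at 93.3 and 591 CPM of Il1rl1. In cycling cells Il33 stood at 112 (WT) and 426 CPM (KO), each below the cells outside that gate. Cells in no subtype gate held 6 WT and 33 KO Il33 UMIs, at 96.2 and 451 CPM, and 1 and 56 Il1rl1 UMIs, at 16.04 and 766 CPM.

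**Figure D4:**
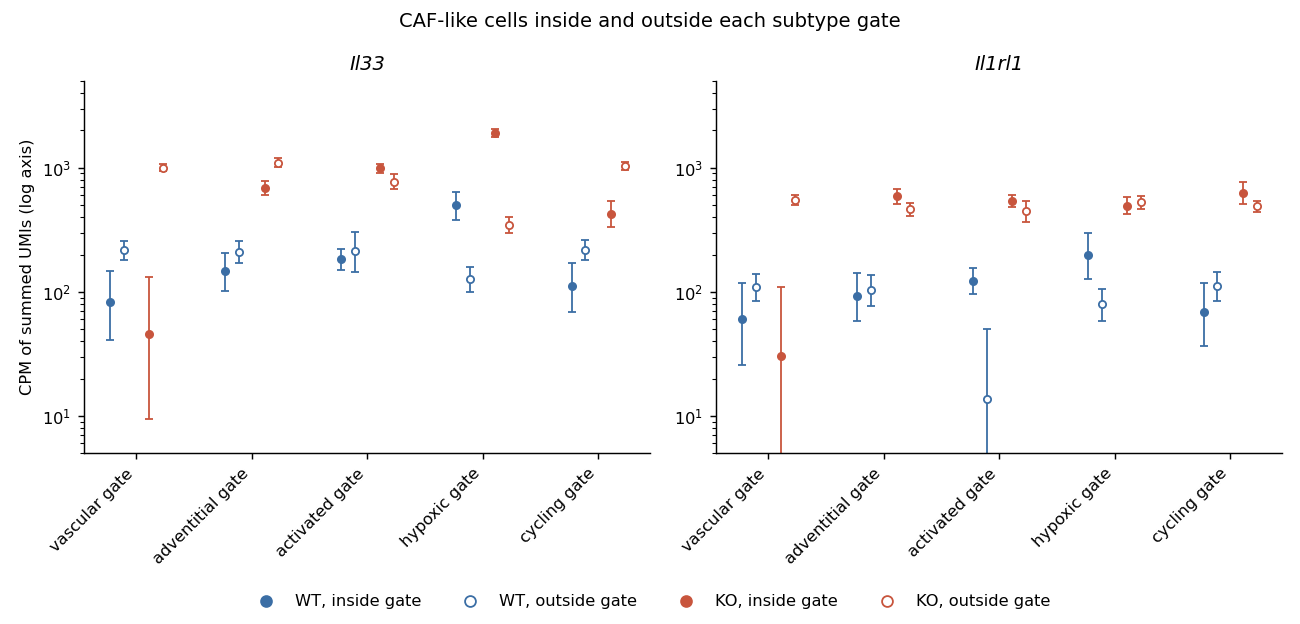
CPM of summed UMIs (log axis) of Il33 and Il1rl1 in CAF-like cells inside (filled) and outside (open) each of 5 overlapping subtype gates, WT library in blue and KO library in red, with 95% Poisson limits. Il33 is highest inside the hypoxic gate in both libraries, at 499.5 and 1900.4 CPM, and the KO points lie above the WT points at every gate except inside the vascular one.

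Myeloid-like cells carried the other ligands. Il1b (chr2:129364570-129371139) and Il1a (chr2:129299610-129309972) lie near each other on the minus strand, and the antagonist Il1rn (chr2:24336853-24351494, plus strand) lies elsewhere on the same chromosome. Il1b stood at 925 CPM in WT (2698 UMIs, limits 890.3 and 960.4) and at 891 CPM in KO (1869 UMIs, limits 851 and 933), a log2 ratio of -0.05 with an interval of -0.14 to 0.03. It was found in 42.2% of WT and 38.2% of KO myeloid-like cells, at median depths of 1861 and 1808.5 UMIs. Thinning to 2000 UMIs left out all shallower cells and kept 606 and 431. The shares were then 24.1% and 14.4% and the log2 ratio was -0.48 with an interval of -0.69 to -0.26. Cells with Il1b were the shallower ones, at medians of 1445 (WT) and 1354 UMIs (KO) against 2267.5 and 2280 without it. The thinned values therefore describe a deeper subset and not the whole class. At full depth the highest cell held 41 Il1b UMIs in WT and 39 in KO, and the tenth of cells with the most held 59.9% and 63.1% of the UMIs.

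Il1rn, the receptor antagonist, held 973 WT UMIs (334 CPM) and 780 KO UMIs (372 CPM), a log2 ratio of 0.16 with an interval of 0.02 to 0.29. The log2 ratio was -0.031 when KO cells with Y-linked UMIs (312 CPM) were set against WT cells with Xist (319 CPM), with overlapping limits. It was 0.50 among cells with Xist in both, so the size of the difference depended on which sex-marked cells were compared. Il1a was sparse and level, at 29.5 CPM (86 UMIs) and 29.6 CPM (62 UMIs), with an interval of -0.49 to 0.49. After thinning the log2 ratio of Il1a was -1.30, on 38 and 11 UMIs. Il1r2 held 28 WT and 16 KO UMIs in myeloid-like cells and Il1rap 24 and 22, with intervals of -1.32 to 0.61 and -0.55 to 1.25. Of the 9370 genes with at least 20 UMIs in these cells, 2.41% were at least 2-fold higher in KO and 1.77% lower with an interval off 0, and none of the 5 members measured there passed that rule in either direction.

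Il1b and Il1rn were distributed unlike each other over myeloid states. Monocyte-gate cells, marked by genes such as Ly6c2, Chil3 and Plac8, stood at 2410 CPM of Il1b in WT and 2646 CPM in KO, against 780.2 and 697 CPM outside the gate. Resident macrophage-gate cells, marked by genes such as Lyve1, Cd163 and Folr2, stood at 188 and 135 CPM, against 1454 and 1910 CPM outside. C1q-high cells, a gate of macrophage genes such as Apoe and Trem2, stood at 369 and 253 CPM, against 2104 and 2548 CPM outside. Of resident-gate cells 90.7% also passed the C1q-high gate, so these are not separate sets of cells. Median depths inside the monocyte, resident and C1q-high gates were 1151, 2934 and 2573 UMIs in WT, so the gate with the most Il1b was the shallowest of the 3. MHC II-gate cells, marked by antigen presentation genes such as H2-Ab1 and Cd74, stood at 1174 (WT) and 2108 CPM (KO), against 807 and 594 CPM outside. The decoy Il1r2 followed that gate in WT, with 26 of 28 myeloid UMIs inside it. In KO 6 of 16 were inside, and the log2 interval of inside over outside, -0.45 to 2.90, held 0. Il1rn varied less over the same states, at 282 and 254 CPM in the monocyte gate, 293 and 319 CPM in the resident gate, and 332 and 374 CPM in the C1q-high gate. Cells of the hypoxic gate, with Arg1 and Hilpda among its markers, stood at 533 (WT) and 650.2 CPM (KO) of Il1rn, against 303 and 291 CPM outside, and the small interferon gate was near it in KO at 626 CPM. In the inflammatory gate, built on cytokines such as Cxcl2, Ccl3 and Tnf, both Il1b (1290 and 1454 CPM) and Il1rn (443 and 566 CPM) stood above cells outside it (716 and 613 CPM of Il1b, 271 and 276 CPM of Il1rn). Il1a was likewise above its outside level there, at 59.4 and 60.5 CPM against 12.4 and 14.3 CPM. In single cells, Il1a was found in 7.10% of WT cells with Il1b and 2.21% of those without, and in 8.27% and 1.81% in KO.

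**Figure D5:**
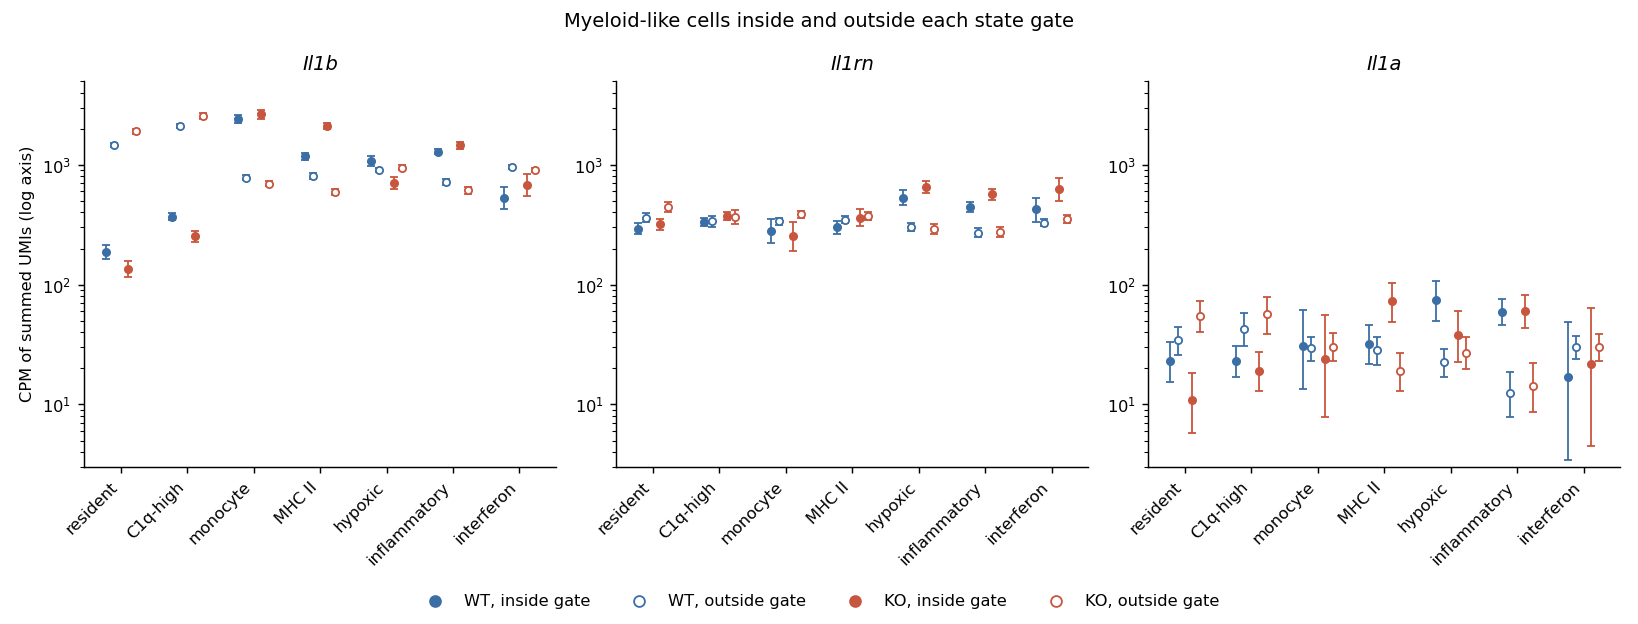
CPM of summed UMIs (log axis) of Il1b, Il1rn and Il1a in myeloid-like cells inside (filled) and outside (open) each of 7 overlapping state gates, WT library in blue and KO library in red, with 95% Poisson limits. Il1b ranges from 135 CPM in the KO resident gate to 2646 CPM in the KO monocyte gate, and Il1rn keeps between 254 and 650.2 CPM inside the gates.

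Small classes and cells without a class added to the picture of the ligands. The 15 WT and 7 KO dendritic-like cells stood at 1025 and 1661 CPM of Il1b, on 30 and 19 UMIs with overlapping limits. The 10 KO neutrophil-like cells held 27 Il1b UMIs, or 2992 CPM (limits 1972 and 4353), against 1 UMI in 2 WT cells. Cells that passed no class gate, at low median depths of 1161 and 1307 UMIs, held 561 WT and 259 KO Il1b UMIs, or 959 and 234 CPM, and 47 and 11 Il1r2 UMIs, or 80.4 and 9.96 CPM. Atf4 stood at 274 (WT) and 228 CPM (KO) in these ungated cells. Of them 58 WT and 102 KO cells lay just below the melanoma gate, and 124 and 74 just below the myeloid gate. The mix of cell types may thus differ between the libraries, and its part in these levels was not tested. Of all Il1b UMIs in kept cells those ungated cells held 15.99% in WT and 11.1% in KO, and of all Il1r2 UMIs 36.7% and 12.8%. At the edge of the myeloid gate, 156 WT cells with exactly 3 markers held 498 Il1b UMIs and 124 WT cells with 2 markers 325, and in KO 108 cells held 286 and 74 cells 178. At the edge of the CAF gate there were 12 WT and 61 KO Il33 UMIs in 6 and 19 cells at exactly 5 markers and 0 and 4 UMIs in 6 and 8 cells at 4 markers. Il1rl1 had 1 WT and 18 KO UMIs in the cells at 5 markers and 0 and 6 UMIs in those at 4. Il1rap, the shared chain, was the 1 member whose UMIs lay mostly in melanoma-like cells. These cells held 127 UMIs in WT and 131 in KO, or 6.59 and 6.51 CPM, in 7.40% and 7.10% of cells. By level Il1rap stood above that in CAF-like cells (22.9 and 12.5 CPM) and in myeloid-like cells (8.23 and 10.5 CPM).

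The rest of the pathway was read from 5 lists, which were chosen with earlier results of these data known. The numbers called in them are therefore descriptions. Of 6 other interleukin-1 family receptor genes 2 were measured in CAF-like cells. Il18r1, the receptor for IL-18, was higher in KO, with 1 WT and 29 KO UMIs (1.43 and 32.8 CPM) and a log2 ratio of 4.52 on an interval of 1.93 to 9.87, while Il1rl2, a receptor for IL-36, stood at 35.8 and 36.2 CPM. Il18r1 lies at chr1:40465552-40500854, 136 bases beyond the annotated end of Il1rl1 on the same strand. All 29 KO Il18r1 UMIs were in 22 cells that also carried Il1rl1, as was the 1 WT UMI, and whether transcripts of Il1rl1 that run on were counted as Il18r1 was not tested. None of 7 other genes for ligands or their binding proteins, 4 of them IL-36 genes that the files list under older symbols, reached 20 UMIs in CAF-like cells, and in myeloid-like cells Il18 (38.7 and 41.5 CPM) and its binding protein Il18bp (15.1 and 26.7 CPM) were measured and neither passed 2-fold.

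Of 18 signalling genes, 13 were measured in CAF-like cells and 1, Irak3, was higher in KO, with 14 WT UMIs (20.02 CPM) and 48 KO UMIs (54.4 CPM). IRAK-M, its product, restrains signalling from these receptors. The median log2 ratio of the 13 was 0.28 beside -0.04 over all 7138 genes, of which 4.05% were called higher. Of 12 genes that process or release the ligands 6 were measured and 1 was higher, beside the same 4.05% of all genes. It was Pycard, the adaptor of inflammasomes, at 14.3 and 32.8 CPM (10 and 29 UMIs). In myeloid-like cells 18 signalling and 8 processing genes were measured and none passed 2-fold in either direction, with median log2 ratios of -0.06 and -0.24 beside -0.00 over all 9370 genes.

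Of 18 genes that interleukin-1 or IL-33 signalling is known to induce, 16 were measured in CAF-like cells. Of those 5 were higher in KO and 1 was lower, beside 4.05% higher and 4.82% lower over all genes. The list was chosen with earlier results of these data known, so nothing is read from the numbers called in it. The higher ones were the neutrophil-attracting chemokines Cxcl5 (62.9 CPM in WT and 812 CPM in KO) and Cxcl2 (197 and 429 CPM), the acute-phase gene Saa3 (466 and 1083 CPM), the cytokine Lif (14.3 and 41.9 CPM) and the RNase Zc3h12a (15.7 and 55.5 CPM), which degrades cytokine messages. The adhesion gene Icam1 was lower, at 60.1 and 28.3 CPM. Il6 stood at 112 and 126 CPM and Ccl2 at 1932 and 2087 CPM, both short of 2-fold, and the median of the 16 was 0.28 beside -0.04 over all genes. In myeloid-like cells 13 were measured, Saa3 was higher in KO (39.4 and 985 CPM) and Cxcl1 was lower (521 and 243 CPM), beside 2.41% higher and 1.77% lower over all 9370 genes, with a median of -0.12.

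Genes with the profile most like a member were named by Pearson correlation of log2(CPM + 10) over 30 points, the 15 classes and gates with at least 20 cells in each library, among 9973 genes with at least 200 UMIs that were no gate marker. The points share cells, since gates overlap, so the correlations are descriptions. They also mix CAF-like sets with melanoma-like, endothelial-like and myeloid-like ones. A gene carried mostly by CAF-like cells can therefore correlate highly with Il33 or Il1rl1 whatever its pattern among CAF-like cells. For Il33 the named genes were Rarres2 (0.985), Ndufa4l2 (0.984), Steap2 (0.982), Ptgis (0.974) and Tmem45a (0.972). For Il1rl1 they were Rarres2 (0.981), Cxcl5 (0.976), Steap2 (0.973), Gfpt2 (0.970) and Ndufa4l2 (0.966). Rarres2, which encodes the chemoattractant chemerin, stood in CAF-like cells at 555 (WT) and 2381 CPM (KO). The log2 ratio of KO over WT in these cells was 2.10 for Rarres2 and 3.69 for Cxcl5. It was 1.30 for Steap2, 1.08 for Ndufa4l2, 0.93 for Gfpt2, 0.84 for Ptgis and 0.35 for Tmem45a, so a similar profile did not mean a similar ratio. For Il1b they included Cd52 (0.985), Pira2 (0.984), Cd86 (0.981) and F10 (0.980), genes of which Cd86, a costimulatory ligand, stood in myeloid-like cells at 108 and 112 CPM.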

How the data were processed

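Single-cell RNA-seq (10x, 3′ ends) was made from 2 tumour libraries, 1 per host genotype. The deposited values are raw UMI counts per gene and barcode, which per the submitters' processing notes the authors made with Cell Ranger 3.1.0 on GRCm38 (Seurat 3.2.1 is named for later steps). Labels and methods name different kit versions. The files held no barcode under 500 UMIs, and 10 barcodes occurred in both libraries (1 among kept cells).

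The cell filter followed the study's methods (200 to 5000 genes, mitochondrial share up to 7.5%). A cell took a class if it passed exactly 1 marker gate: 5 of 8 melanoma, 5 of 10 CAF, 4 of 9 endothelial, 3 of 10 myeloid markers and 3 for each smaller class. Gates for subtypes and states needed 3 markers. No gate uses a member. 419 WT and 411 KO cells passed no gate and 137 and 98 passed several; no cell was removed as a doublet, and Scrublet called 114 and 50. The members, lists and thresholds were chosen with earlier results of these data known. The gate thresholds were set after marker distributions and member sums had been seen, and the myeloid threshold was lowered to 3 because many ungated cells held Il1b.

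CPM were computed from UMI sums over the cells of a class, with exact Poisson limits. Shares of cells have Clopper-Pearson limits. Ratios of KO over WT or of inside over outside a gate have exact conditional binomial intervals (all 95%). UMIs of 1 gene clump in cells, so these intervals, which cover counting error only, understate the spread. A count of 0 was given a floor of 3 UMIs in a ratio. A gene was called at 2-fold with an interval off 0 and at least 20 UMIs. Cells are not replicates, and no p-value was computed. Genes named were all 8 members, Atf4, called genes of the lists (up to 8 per class by UMIs) and the 5 most similar profiles of Il33, Il1rl1 and Il1b (1 of those of Il1b is not reported here); other genes in the text were chosen after their values were seen. The ratio and call rule were tested on simulated Poisson counts. These had no clumping in cells and no differences between mice or libraries, so that spread was not covered. Alternatives were another mitochondrial or gene limit, doublet removal, stricter gates, other scalings (edgeR 4.0.16 for TMM factors), free-RNA subtraction, sex-marked cells and thinning to 2000 UMIs. Python 3.11.15, scipy 1.17.1, scanpy 1.11.5 and R 4.3.3 were used. The symbols of 4 listed genes were matched through RefSeq synonyms. Gene positions come from GENCODE and upstream sequences from RefSeq (GRCm38.p6), which held windows for all 8 members. Larger tumours were not analysed here.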

Additional observations from a re-analysis of the deposited data

Results flagged for a closer look

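Cells that passed both the CAF and the melanoma gate were left out of every class, and they carried Il33 and Il1rl1 in the KO library. The 19 KO cells stood at 340.3 CPM of Il33 (74 UMIs) and 110.4 CPM of Il1rl1 (24 UMIs), against 7.28 CPM (2 UMIs) and 32.8 CPM (9 UMIs) in 25 WT cells. The log2 ratio of KO over WT was 5.55 for Il33 (interval 3.64 to 8.62) and 1.75 for Il1rl1 (interval 0.60 to 3.04). Of the cells passing several gates, Scrublet called 81 WT and 38 KO cells doublets. In the CAF-gated barcodes that failed the cell filter Il33 had 3 WT and 9 KO UMIs, an interval of -1.18 to 3.34.

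In myeloid-like cells the ratio of KO over WT for Il1b ran in opposite directions between state gates, and the difference between gates was not tested. Its log2 value was 0.84 in the MHC II gate and 0.17 in the inflammatory gate, and -0.47 in the resident gate, -0.54 in the C1q-high gate and -0.61 in the hypoxic gate. Il1a differed in sign between 3 of these gates, at 1.19 in the MHC II gate (30 UMIs in each library), -1.09 in the resident gate (28 and 13 UMIs) and -0.96 in the hypoxic gate (29 and 18 UMIs), while its intervals held 0 in the inflammatory gate (0.03, -0.57 to 0.61) and the C1q-high gate (-0.28, -0.999 to 0.43). Gates overlap, with 90.7% of resident-gate cells also in the C1q-high gate, and each library gives 1 value. These are therefore single values with counting error only, picked because their intervals lay on different sides of 0.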

How the results depend on the processing

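No paired analysis was possible because a single library stood for WT and a single one for KO, and no replicate could be left out. The log2 ratio of KO over WT in CAF-like cells ranged from 1.71 to 2.67 for Il33 and from 2.10 to 3.67 for Il1rl1 over 12 alternatives, and 54 of 59 values over the CAF-like members lay inside the interval of the reported one. Among cells with Xist and no Y-linked UMIs it was 1.71 for Il33, and in myeloid-like cells 0.12 for Il1b, 0.50 for Il1rn and -0.54 for Il1a. After thinning to 2000 UMIs, which left out shallower cells, it was -0.48 for Il1b and -1.30 for Il1a. These alternatives were chosen after seeing the data: with gates on thinned cells, -0.38 for Il1b, -0.76 for Il1a and -2.31 for myeloid Il1r2; with KO cells carrying Y-linked UMIs against WT cells with Xist, 2.67 for Il33, 2.76 for Il1rl1, -0.20 for Il1b, -0.031 for Il1rn, which changed sign, 1.31 for myeloid Il1rap and -1.60 for myeloid Il1r2; and without the 10 highest cells per library, 2.58 for Il33, 3.67 for Il1rl1 and -1.98 for myeloid Il1r2. Gates with 1 more marker moved log2 inside over outside values in CAF-like cells to -1.005 (Il33, KO adventitial), -0.85 and 0.034 (Il33, WT and KO activated), 1.94 (Il33, KO hypoxic), and 0.14 and -0.76 (Il1rl1, WT and KO hypoxic). In myeloid-like cells they moved Il1b to -4.58 (KO resident), -2.98 and -3.12 (WT and KO C1q-high), 1.52 (KO monocyte), 0.66 (WT MHC II), 0.59 and -0.24 (WT and KO hypoxic), 0.97 (WT inflammatory) and 0.22 (KO interferon, which changed sign), and Il1rn to 0.92 and 0.75 (WT and KO inflammatory). With at least 100 UMIs per gene, 64 genes were higher and 71 lower in CAF-like cells (289 and 344 at 20 UMIs), and 68 and 38 in myeloid-like cells (226 and 166). Apart from the fewer genes, UMIs or cells kept under these settings, the cause of these moves was not tested. Depth limits Il1rap in CAF-like cells and every member in the small classes.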
